A study of Mus musculus with 15 samples.

Results

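Levels of 8 noncoding genes, namely Neat1, Malat1, Mir155hg, Dleu2, Gas5, Snhg1, Snhg12 and Snhg15, were compared in MH-S cells, an SV40-transformed alveolar macrophage line of the mouse. The genes were taken by name, through their Ensembl identifiers, and all 8 were found among the 78317 identifiers of the count table and among the 16654 genes that were tested. RNA came from 5 groups of 3 libraries each, and all groups shared the line, the medium and 24 h of incubation. M0 cells received medium alone, M1 cells LPS at 1 µg/mL with IFN-γ at 20 ng/mL, M2 cells IL-4 at 20 ng/mL, and the remaining groups calcium phosphate (CaP) or silica (SiO2) microrods at 0.1 mg/mL. Each microrod library had its own particle batch, and the study describes the replicates as separate wells of a single cell passage. The p-values thus measure the spread between wells and libraries, which may be technical. In the microrod groups this spread also holds differences between particle batches.

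Most long noncoding RNAs (lncRNAs) act, as far as is known, as RNA. Neat1 is the scaffold of the paraspeckle, a nuclear body that holds RNA and RNA-binding proteins, and Malat1 is its neighbour in the genome and lies in nuclear speckles. Host genes are processed into small RNAs: the exons of Mir155hg hold the hairpin of miR-155, a regulator of macrophage activation, introns of Dleu2 hold miR-15a and miR-16-1, which restrain the cell cycle, and introns of Gas5, Snhg1, Snhg12 and Snhg15 hold small nucleolar RNAs (snoRNAs), which guide the modification of ribosomal RNA. The spliced remains of the snoRNA hosts are typically removed by nonsense-mediated decay, a translation-dependent pathway, so that their level reflects both synthesis and decay.

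The mature miRNAs of the hosts are given because they are the products through which Mir155hg and Dleu2 are best known. Sequences are those of RefSeq on GRCm38.p6, with the seed, bases 2 to 8 from the 5′ end, in capitals. miR-155-5p lies on the plus strand at chr16:84714143-84714165, miR-15a-5p on the minus strand at chr14:61632075-61632096, and miR-16-5p on the same strand at chr14:61631936-61631957.
mmu-miR-155-5p: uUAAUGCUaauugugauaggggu
mmu-miR-155-3p: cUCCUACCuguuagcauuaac
mmu-miR-15a-5p: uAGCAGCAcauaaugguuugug
mmu-miR-16-5p: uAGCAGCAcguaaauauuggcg
The main arms of both Dleu2 miRNAs share the seed AGCAGCA, which differs from the seeds of both miR-155 arms. The small RNAs themselves were not measured here, since libraries were primed with oligo-dT on polyadenylated RNA. Of 35 small RNA genes annotated within the 8 members, 25 had a row in the table and 0 had a count in any library, against 352964106 counts in all, which allows a level of up to 0.0085 CPM (the count of a gene divided by the scaled depth of its library). The values below are therefore those of the host transcripts.

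Promoter sequence is shown for the genes whose levels in M1 differed most clearly from M0, Mir155hg upwards and Snhg1 downwards. Each window runs from 250 bases before to 50 bases after the RefSeq start, 5′ to 3′ on the strand of the gene, with the 50 transcribed bases in capitals. That of Mir155hg lies at chr16:84712773-84713072 and that of Snhg1 at chr19:8723237-8723536, both on the plus strand of GRCm38.p6.
Mir155hg: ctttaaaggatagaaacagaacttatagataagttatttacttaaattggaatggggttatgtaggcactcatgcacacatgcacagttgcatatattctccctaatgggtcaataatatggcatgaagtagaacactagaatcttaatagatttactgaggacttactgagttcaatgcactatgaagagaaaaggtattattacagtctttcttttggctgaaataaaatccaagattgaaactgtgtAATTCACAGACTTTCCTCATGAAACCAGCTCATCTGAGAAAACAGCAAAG
Snhg1: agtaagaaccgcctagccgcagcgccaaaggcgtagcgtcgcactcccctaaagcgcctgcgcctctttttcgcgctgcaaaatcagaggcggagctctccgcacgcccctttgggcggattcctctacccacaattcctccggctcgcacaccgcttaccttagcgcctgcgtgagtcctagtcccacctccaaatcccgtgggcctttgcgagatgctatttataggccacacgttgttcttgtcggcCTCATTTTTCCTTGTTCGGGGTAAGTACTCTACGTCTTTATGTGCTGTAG
The windows differed in base composition, with 34.3% G and C for Mir155hg and 56.7% for Snhg1, against a median of 52.7% over 32851 mouse promoters. Both strands were searched for TGACTCA (bound by AP-1), TGACGTCA (the cyclic AMP response element, CRE), TTCNNNGAA (bound by STAT factors), TATAAA (the TATA box) and the kappaB motif. The window of Mir155hg held none of them, and the share of all promoters with at least 1 match was 5.2% for AP-1, 1.79% for CRE, 8.3% for the STAT motif, 13.6% for TATA and 8.46% for kappaB. Only these 300 bases were searched, so sites elsewhere or inexact matches would be missed. The start used in these cells was not examined. The window of Snhg1 held a TATA match 29 bases before the start, on the opposite strand. Of the 8 windows found for 7 members (Gas5 has 2, Neat1 is not in the promoter table), CRE occurred in 1 window of Gas5, 46 bases before the start, and in that of Snhg15, 88 bases before the start. Dleu2 held a TATA match at base 16 of the transcript, and none of these matches overlapped another.

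Library depth, as summed counts, was 8459643 to 39201265 for M0, 10117846 to 14879931 for M1, 8594947 to 68750050 for M2, 14632876 to 50729211 for CaP microrods and 12646926 to 24990730 for SiO2 microrods. The 8 members together took between 0.0360% and 0.0709% of the counts of a library. As a sum, macrophage markers were present throughout, with 2378 to 4445 CPM over the 10 genes. Of these, Mertk and Marco were at 0 in some library and reached at most 0.501 and 2.82 CPM, and Itgax at most 4.93 CPM. The 6 alveolar macrophage markers (Siglecf, Pparg, Chil3, Car4, Fabp1 and Ear2) reached only 0.172 to 1.16 CPM in sum, with Ear2 at 0 in every library. Epithelial, fibroblast, endothelial and lymphocyte markers each stayed at or under 1.77 CPM in sum. Mitochondrial genes took 1.48% to 2.18% of the counts in M0, 0.888% to 1.04% in M1, 1.03% to 2.13% in M2, 1.21% to 1.51% with CaP and 1.13% to 1.37% with SiO2 microrods. In bulk RNA, fewer cells that express a gene and less of its RNA per cell cannot be told apart.

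Abundance among the members was compared in M0 as CPM per kb of annotated exon sequence. Gas5 was the most abundant host, at 90.7 ± 22.1 CPM per kb (SD, n = 3), followed by Snhg15 at 38.3 ± 2.69, Snhg1 at 9.59 ± 0.763, Snhg12 at 4.21 ± 0.854 and Neat1 at 2.59 ± 0.858. Dleu2 at 1.62 ± 0.488 and Malat1 at 1.25 ± 0.168 overlapped each other. Dleu2 also overlapped with Neat1, and Neat1 (1.71 to 3.43) with Snhg12 (3.23 to 4.81). Mir155hg came last at 0.0878 ± 0.00610. In M1, Mir155hg stood by mean between Snhg15 and Snhg12, at 10.3 ± 4.45 CPM per kb, but its range of 5.92 to 14.8 overlapped those of Snhg12 (6.92 to 7.52) and Snhg1 (5.65 to 6.15). There Snhg12 (7.30 ± 0.329) stood above Snhg1 (5.84 ± 0.271), the reverse of their order in the other 4 groups. The lengths are those of the exon union in another annotation release, up to 20771 bases for Neat1, so an unused long isoform lowers its value.

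**Figure D1:**
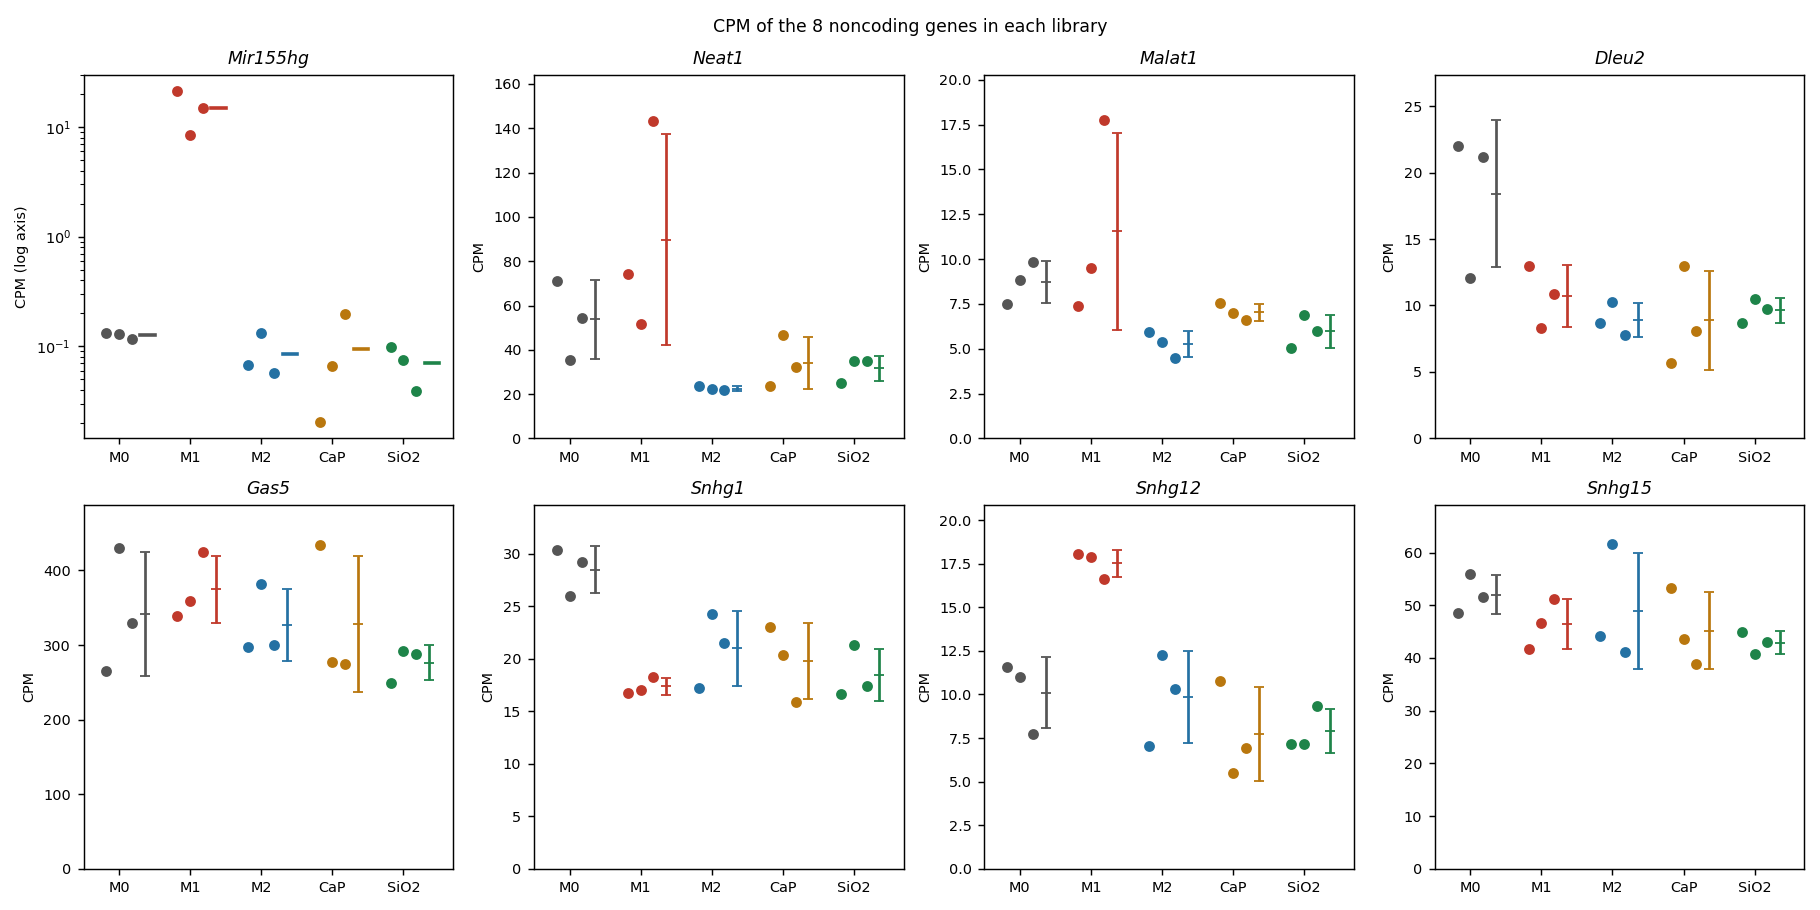
CPM of the 8 genes (y axis, log scale for Mir155hg and linear from 0 for the others) in each library (points, replicates 1 to 3 from left to right) by group (x axis), with the mean and, on the linear panels, the SD beside the points. Mir155hg lies between 8.48 and 21.2 CPM in M1 and at or under 0.199 CPM elsewhere, and Snhg12 in M1 and Snhg1 in M0 lie above all other libraries.

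Mir155hg, host of miR-155, was the member with the largest change, and it was detected above a handful of counts in M1 alone. In the M1 libraries it had 21.2, 8.48 and 14.8 CPM, from 247, 124 and 152 counts. In M0 it had 0.132, 0.130 and 0.116 CPM, from 5, 2 and 1 counts. The other groups held 1, 1 and 4 counts (M2), 1, 1 and 8 counts (CaP) and 2, 1 and 1 counts (SiO2), so that every M1 library lay above all 12 others. The summed level in M1 was 111 times that in M0, with an exact 95% counting interval of 55.8 to 258, which covers counting error only. Against M2 the ratio was 220 (100.3 to 601), against CaP microrods 149 (80.4 to 312) and against SiO2 microrods 211 (81.8 to 776). The fitted log2 fold change of M1 was 6.78 against M0 (SE 0.42) and 7.70 against M2 (SE 0.45). These are given as a description with no test, because Mir155hg passed the filter on low counts only through M1, the group where it is high. Its levels in the other 4 groups are too near the floor of 3 counts for their differences to be read. Mrpl39, which encodes a mitochondrial ribosomal protein and is the nearest gene on the opposite strand, had 100.4 CPM in M1 and 92.1 in M0 (log2 fold change 0.13, SE 0.14, adjusted p = 0.581).

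The M1 libraries were compared with M0 to see which members respond to LPS with IFN-γ. Mir155hg was left out of the counts because it was admitted through M1. By edgeR, 1 of the 7 other members passed an adjusted p below 0.05 with an absolute log2 fold change above 0.5, Snhg1 downwards, against 14.1% of all genes tested (9.7% higher and 4.37% lower). The libraries of M1 and M0 did not overlap for 2 of the 7, Snhg12 higher and Snhg1 lower, against 32.2% of all genes. Their median log2 fold change was 0.14, and that of all genes -0.01.

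Snhg1, an abundant snoRNA host, fell in M1. Its level was 30.3, 26.0 and 29.2 CPM in M0 and 16.8, 17.0 and 18.3 CPM in M1. All M0 libraries were also above those of M2 (17.2, 24.2 and 21.5 CPM), CaP (23.1, 20.3 and 15.9 CPM) and SiO2 microrods (16.6, 21.3 and 17.4 CPM), so M0 was the highest group and the other 4 overlapped. Against M0, the log2 fold change was -0.72 in M1 (SE 0.19, adjusted p = 0.0196 in edgeR), -0.45 in M2 (SE 0.18, adjusted p = 0.219), -0.53 with CaP (SE 0.18, adjusted p = 0.196) and -0.63 with SiO2 microrods (SE 0.18, adjusted p = 0.283). These 4 comparisons share the M0 libraries. The call in M1 was narrow: it was lost without M0 replicate 1 (adjusted p = 0.0521), M0 replicate 3 (0.0502), M1 replicate 1 (0.0567), M1 replicate 2 (0.0722) or M1 replicate 3 (0.0509), and the log2 fold change then lay between -0.75 and -0.69.

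The gene next to Snhg1 moved the other way. Slc3a2, the heavy chain of amino acid transporters at the cell surface, lies head to head with Snhg1 on the opposite strand. It had 223, 347 and 298 CPM in M0 and 427, 507 and 520 CPM in M1, and the ranges did not overlap. Its log2 fold change in M1 against M0 was 0.74 (SE 0.17, adjusted p = 0.00888 in edgeR), and it passed without any 1 of the 15 libraries, with adjusted p from 0.00638 to 0.0414. Against M2 (367, 294 and 317 CPM) it was 0.57 higher in M1 (SE 0.17, adjusted p = 0.0317), a call that was lost without M1 replicate 2 (0.54, adjusted p = 0.101), M1 replicate 3 (0.52, 0.110), M2 replicate 2 (0.41, 0.111) or M2 replicate 3 (0.55, 0.0990). With microrods the log2 fold change of Slc3a2 against M0 was 0.21 for CaP (adjusted p = 0.555) and 0.09 for SiO2 (adjusted p = 0.955), and the difference between the changes of Snhg1 and Slc3a2 was not tested. Wdr74, the nearest gene on the strand of Snhg1, had 113 CPM in M1 and 103 CPM in M0 (log2 fold change 0.14, adjusted p = 0.690).

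**Figure D2:**
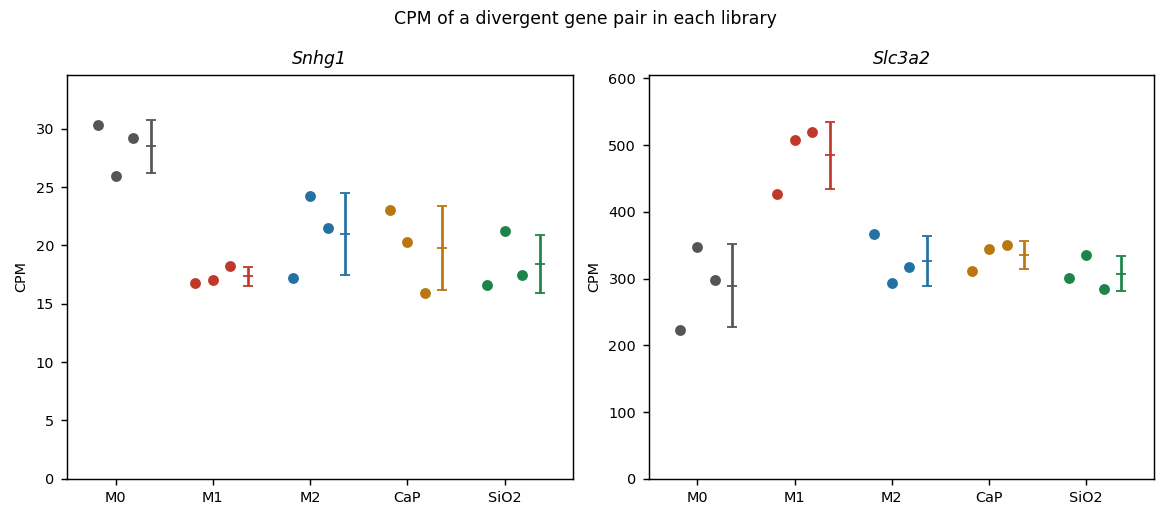
CPM of the divergent genes Snhg1 (left) and Slc3a2 (right) on linear axes from 0, in each library (points) with the group mean and SD (bars). In M1, Snhg1 lies at 16.8 to 18.3 CPM, below all M0 libraries, and Slc3a2 at 427 to 520 CPM, above all 12 other libraries.

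Snhg12, another snoRNA host, stood highest in M1. It had 18.1, 17.9 and 16.6 CPM there, 11.6, 11.0 and 7.76 CPM in M0, and 7.03, 12.2 and 10.3 CPM in M2. Microrod cells had 10.7, 5.52 and 6.90 CPM (CaP) and 7.15, 7.19 and 9.35 CPM (SiO2), and these groups overlapped with M0 and with each other. The log2 fold change of M1 was 0.77 against M0 (SE 0.26, adjusted p = 0.0674 in edgeR) and 0.84 against M2 (SE 0.27, adjusted p = 0.0448), of which only the latter passed. That call was kept in 4 of 15 fits without 1 library, and failed without M0 replicate 1 or 2, any 1 of the M1 libraries, M2 replicate 1 or 3, CaP replicate 3, or any 1 of the SiO2 libraries, with adjusted p up to 0.160 and a log2 fold change of 0.65 to 0.89 in these fits.

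The ratio of both hosts within a library, which does not depend on scaling, also lay apart in M1. There were 1.08, 1.05 and 0.910 counts of Snhg12 per count of Snhg1 in M1, and between 0.266 and 0.536 in the other 12 libraries. Gas5 per Snhg1 was 20.3, 21.1 and 23.2 in M1 and between 8.73 and 18.8 elsewhere. Both ratios are descriptions of libraries already compared above, and no test was run on them.

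Gas5, a snoRNA host whose spliced RNA accumulates when cell growth stops, differed little between groups. It had 265, 429 and 329 CPM in M0, 340, 359 and 425 CPM in M1, 297, 382 and 300.3 CPM in M2, 434, 277 and 274 CPM with CaP and 249, 292 and 288 CPM with SiO2 microrods, and the only groups without overlap were SiO2 against M1 and against M2, pairs that were not tested. Its log2 fold change against M0 lay between -0.30 (SiO2, 95% interval -0.76 to 0.16, adjusted p = 0.782) and 0.14 (M1, -0.32 to 0.59, adjusted p = 0.705). In each of the 5 groups the library with the most Gas5 was also the one with the largest mitochondrial share, and their part in each other was not tested. Zbtb37 overlaps Gas5 on the opposite strand, and reads of both cannot be told apart without strand, but it held at most 38 counts in a library.

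Snhg15, a host of a single annotated snoRNA, had the smallest spread over all libraries of the 8 members, with an RMS of 0.18 on the log2 scale. It had 48.6, 55.9 and 51.7 CPM in M0, 41.7, 46.7 and 51.1 CPM in M1, 44.1, 61.6 and 41.1 CPM in M2, 53.2, 43.5 and 38.8 CPM with CaP and 45.0, 40.7 and 43.1 CPM with SiO2 microrods. Its SiO2 libraries lay below those of M0 without overlap, and its other groups overlapped with M0. The log2 fold change against M0 was -0.16 in M1 (95% interval -0.54 to 0.22), -0.10 in M2 (-0.48 to 0.29), -0.20 with CaP (-0.58 to 0.18) and -0.28 with SiO2 (-0.66 to 0.10), with adjusted p of at least 0.576 in edgeR.

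The comparison of M2 with M0 asked which members respond to IL-4. None passed by edgeR (0 of 8, with 4.13% of all genes called), while 4 had an unadjusted p below 0.05 (17.2% of all genes). DESeq2 called 2, Neat1 and Dleu2, and 995 of the 16654 genes tested. The 4 members whose libraries did not overlap, Neat1, Malat1, Snhg1 and Dleu2, were all lower in M2, where 8.2% of all genes were lower without overlap. The median log2 fold change of the 7 members other than Mir155hg was -0.45 and that of all genes 0.07.

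Neat1 separated M1 from M2. It had 71.1, 35.5 and 54.4 CPM in M0, 74.3, 51.6 and 143 CPM in M1, and 23.6, 22.2 and 21.7 CPM in M2. M1 and M0 overlapped, M2 lay below both, and the M2 libraries differed by a CV of 4.46% only, against 53.2% in M1. The log2 fold change of M1 against M2 was 1.99 (SE 0.37, adjusted p = 0.00192 in edgeR), and it passed without any 1 of the 15 libraries, with 1.48 to 2.27 and adjusted p of 0.000904 to 0.0119. Against M0, the log2 fold change was 0.73 in M1 (SE 0.35, adjusted p = 0.196), 0.22 without M1 replicate 3, and -1.26 in M2 (SE 0.36, adjusted p = 0.0718). With DESeq2 the latter was -1.25 with an adjusted p of 0.0182, and in edgeR it also passed without M0 replicate 2 (-1.49, adjusted p = 0.0463) or without M1 replicate 3 (-1.26, 0.0342).

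Malat1 followed the same order at a lower level. It had 7.51, 8.85 and 9.85 CPM in M0, 7.39, 9.50 and 17.8 CPM in M1, and 5.94, 5.40 and 4.49 CPM in M2, so that M2 lay below both without overlap and M1 overlapped with M0. M1 was 1.15 above M2 on the log2 scale (SE 0.29, adjusted p = 0.0141 in edgeR). The call was lost without M1 replicate 3 (0.71, adjusted p = 0.0727) and without M2 replicate 3 (1.01, adjusted p = 0.0803). The highest library of both Neat1 and Malat1 was M1 replicate 3. Against M0 the log2 fold change was 0.41 in M1 (adjusted p = 0.359) and -0.73 in M2 (adjusted p = 0.195).

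Between M1 and M2 directly, again without Mir155hg, 3 of 7 members passed, all higher in M1 (Neat1, Malat1 and Snhg12), where 16.1% of all genes were called and 10.6% were called higher. The same 3 were higher without overlap, against 18.2% of all genes. Their median log2 fold change, over all 7, was 0.28, and that of all genes -0.04.

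Dleu2, host of miR-15a and miR-16-1, was highest in M0. It had 22.0, 12.0 and 21.2 CPM in M0, 13.0, 8.27 and 10.9 CPM in M1, 8.67, 10.3 and 7.80 CPM in M2, 5.66, 13.0 and 8.07 CPM with CaP and 8.66, 10.5 and 9.75 CPM with SiO2 microrods. M0 replicate 2 was the low library of its group, M1 and CaP reached up to it, and M2 and SiO2 stayed below all of M0. M0 replicate 2, also the lowest M0 library for Neat1, had the largest mitochondrial share of all (2.18%), whose part in these levels was not tested. Against M0, the log2 fold change was -0.79 in M1 (SE 0.30, adjusted p = 0.105 in edgeR), -1.07 in M2 (SE 0.31, adjusted p = 0.0698), -1.08 with CaP (SE 0.30, adjusted p = 0.122) and -0.94 with SiO2 (SE 0.30, adjusted p = 0.360), and none passed. DESeq2 called Dleu2 in M2 (-1.06, adjusted p = 0.0212) and with CaP microrods (-1.09, adjusted p = 0.0273). Without M0 replicate 2, edgeR called it in M2 (-1.30, adjusted p = 0.0315) and in M1 (-1.02, adjusted p = 0.0466), and in M2 it was also called without M2 replicate 2 (0.0481), CaP replicate 1 (0.0350) or CaP replicate 2 (0.0422).

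Other genes lie within the span of Dleu2, and without strand their overlapping reads cannot be told apart. Trim13, an E3 ubiquitin ligase on the opposite strand, had 7.77, 5.46 and 7.30 CPM in M0, 9.80, 7.66 and 8.36 CPM in M1 and 3.48, 7.37 and 3.78 CPM in M2. M1 was above M2 by 0.91 on the log2 scale (SE 0.26, adjusted p = 0.0296 in edgeR), and the lncRNA Gm27010, on the strand of Dleu2, by 1.94 (SE 0.56, adjusted p = 0.0303), while Dleu2 itself was 0.28 higher in M1 (SE 0.31, adjusted p = 0.553). Both calls were lost without any 1 of M1 replicates 1, 2 and 3, M2 replicate 1 or M2 replicate 3, and without M2 replicate 3 the log2 fold change of Gm27010 fell to 1.13 (adjusted p = 0.204). Of 13 tested neighbours of the members, 1 passed in M1 against M0 (Slc3a2, with 14.1% of all genes called), 3 in M1 against M2 (Slc3a2, Trim13 and Gm27010, with 16.1%) and 0 in the other comparisons.

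**Figure D3:**
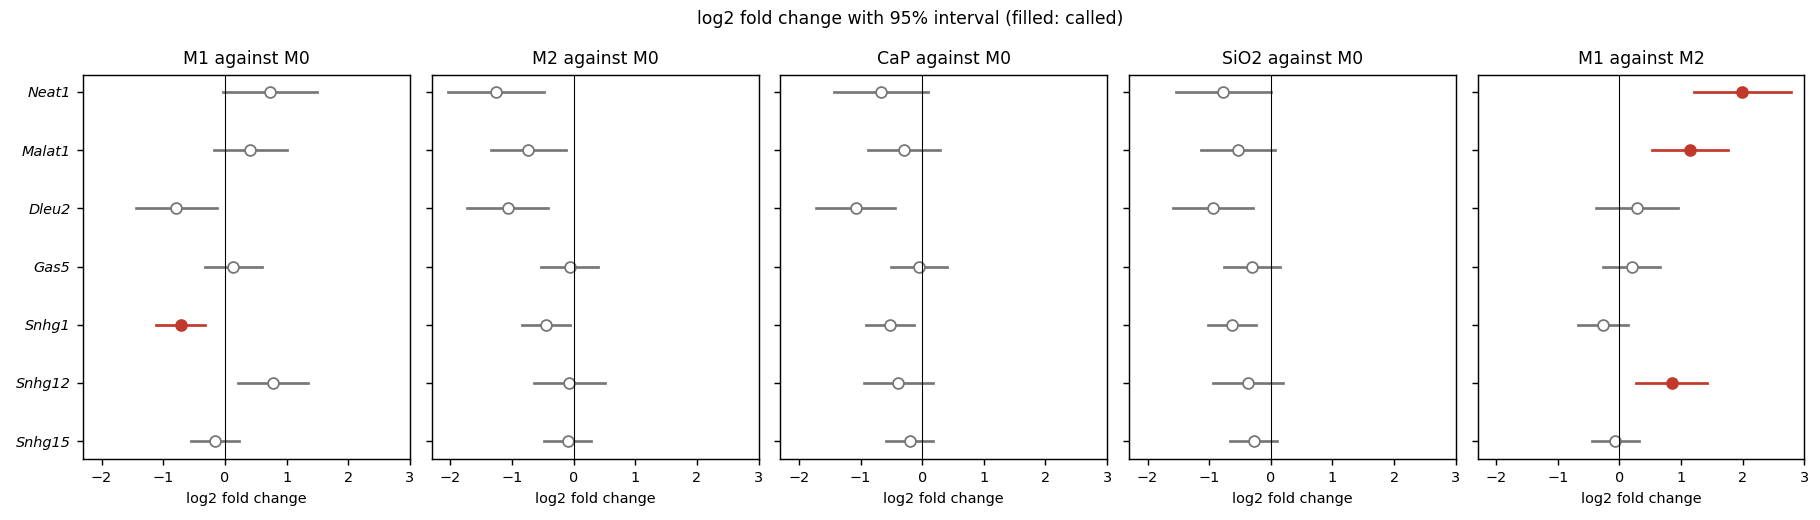
log2 fold changes (x axis) of the 7 members other than Mir155hg (y axis) in 5 comparisons, with the 95% interval from edgeR's model of all 15 libraries, filled red where called and open where not. Snhg1 alone is called in M1 against M0, and Neat1, Malat1 and Snhg12 in M1 against M2, and the M0 libraries are shared by 4 of the panels.

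With CaP microrods, none of the 8 members passed against M0 by edgeR, where 0.654% of all genes were called. At an unadjusted p below 0.05 there were 2 (Snhg1 and Dleu2, against 15.8% of all genes). DESeq2 called 1 member, Dleu2, and 468 of the 16654 genes tested. Of the 8 members 1, Snhg1, was lower without overlap, against 10.1% of all genes. With SiO2 microrods, none passed by edgeR (0.264% of all genes) or by DESeq2 (132 of 16654 genes). An unadjusted p below 0.05 was found for 3 (Snhg1, Dleu2 and Neat1, against 8.17%). Of the 7 other than Mir155hg, 5 were lower without overlap (Neat1, Malat1, Snhg1, Snhg15 and Dleu2), against 8.87% of all genes. The median log2 fold change of these 7 was -0.39 with CaP and -0.54 with SiO2, beside 0.06 and -0.02 over all genes, and both medians are taken against the same M0 libraries.

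Neat1 had 23.5, 46.9 and 32.0 CPM with CaP and 25.1, 34.8 and 35.0 CPM with SiO2 microrods. The log2 fold change against M0 was -0.66 (95% interval -1.42 to 0.10, adjusted p = 0.375) and -0.77 (-1.53 to -0.0044, adjusted p = 0.610) by edgeR. Malat1 had 7.55, 6.97 and 6.58 CPM with CaP and 5.04, 6.88 and 5.98 CPM with SiO2 microrods, and its log2 fold change was -0.29 (adjusted p = 0.627) and -0.54 (adjusted p = 0.676). Both microrod groups lay between M0 and M2 by mean for Neat1 and for Malat1, and neighbours in that order overlapped except SiO2 and M2 for Neat1.

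Between the microrods, 0 of 8 members passed by edgeR or by DESeq2, 0 had an unadjusted p below 0.05 (1.66% of all genes) and 0 did not overlap (8.1% of all genes), where 0.018% of all genes were called. The 95% interval of the log2 difference, CaP against SiO2, was -0.30 to 0.45 for Snhg15, -0.29 to 0.49 for Snhg1, -0.21 to 0.71 for Gas5, -0.58 to 0.55 for Snhg12, -0.34 to 0.83 for Malat1, -0.66 to 0.86 for Neat1 and -0.79 to 0.50 for Dleu2. All adjusted p-values were 1.

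Other noncoding genes of the same kinds were read beside the members. Of 13 other snoRNA hosts tested, 1 fell in M1 (Snhg18, -0.81, adjusted p = 0.0466 in edgeR, where 4.37% of all genes fell) and the same gene passed in M2 (-0.93, adjusted p = 0.0495, where 4.13% of all genes were called). Both calls of Snhg18 were narrow, passing in 3 and 2 of 15 fits without 1 library, with adjusted p up to 0.155 and 0.166. With either microrod 0 passed (0 of 13 with CaP and 2 of 13 with SiO2 at an unadjusted p below 0.05, against 15.8% and 8.17% of all genes). Their medians were -0.05 in M1, 0.05 in M2, -0.26 with CaP and -0.31 with SiO2. Zfas1, singled out after its values were seen, lay just outside the threshold. It had 78.5, 54.5 and 71.1 CPM in M0 and 211, 138 and 334 CPM in M1, without overlap (log2 fold change 1.74, SE 0.55, adjusted p = 0.0501), and M2 replicate 2 reached 245 CPM, against 55.1 and 37.3 in the other M2 libraries. In M1, 6 of the 13 hosts had a level above that of M0 and 7 a level below it.

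Of 6 tested miRNA hosts, 1 rose in M1, where 9.7% of all genes were called higher, and 1 in M2, where 4.13% were called. Mir22hg, host of miR-22, had 2.79, 1.95 and 3.24 CPM in M0 and 8.86, 5.20 and 7.19 CPM in M1 (log2 fold change 1.42, SE 0.29, adjusted p = 0.00529 in edgeR). Mir99ahg, host of miR-99a and let-7c, had 3.21, 2.60 and 5.21 CPM in M0 and 8.73, 10.4 and 7.73 CPM in M2 (1.32, SE 0.27, adjusted p = 0.0147), a call lost without M0 replicate 1 (adjusted p = 0.0946) or M0 replicate 2 (0.0543). Neither overlapped with M0 in the group where it rose, and 0 of 6 passed with microrods. At an unadjusted p below 0.05 there were 1 with CaP and 2 with SiO2, against 15.8% and 8.17% of all genes.

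Among 15 other tested lncRNAs, 2 rose and 1 fell in M1 (14.1% of all genes called), and 2 fell in M2 (4.13%). Morrbid, which restrains the pro-apoptotic gene Bcl2l11 in myeloid cells, had 27.6, 23.0 and 27.7 CPM in M0 and 58.8, 57.8 and 54.4 CPM in M1 (log2 fold change 1.13, SE 0.22, adjusted p = 0.00348 in edgeR). Ptgs2os2, antisense to the prostaglandin synthase gene Ptgs2, had 1.74, 1.50 and 1.27 CPM in M0, 7.31, 3.69 and 4.66 CPM in M1 and 0.614, 0.526 and 0.444 CPM in M2. It rose by 1.73 in M1 (adjusted p = 0.00219) and fell by 1.66 in M2 (adjusted p = 0.0317, passing in 10 of 15 fits without 1 library), although reads of Ptgs2 on the other strand cannot be told apart from it where they overlap. Kcnq1ot1, an imprinted antisense RNA, fell in both M1 (-0.97, adjusted p = 0.0347) and M2 (-1.13, adjusted p = 0.0383), which passed in 11 and 5 of 15 fits without 1 library. With microrods 0 of 15 passed, with 4 (CaP) and 3 (SiO2) at an unadjusted p below 0.05, against 15.8% and 8.17% of all genes.

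**Figure D4:**
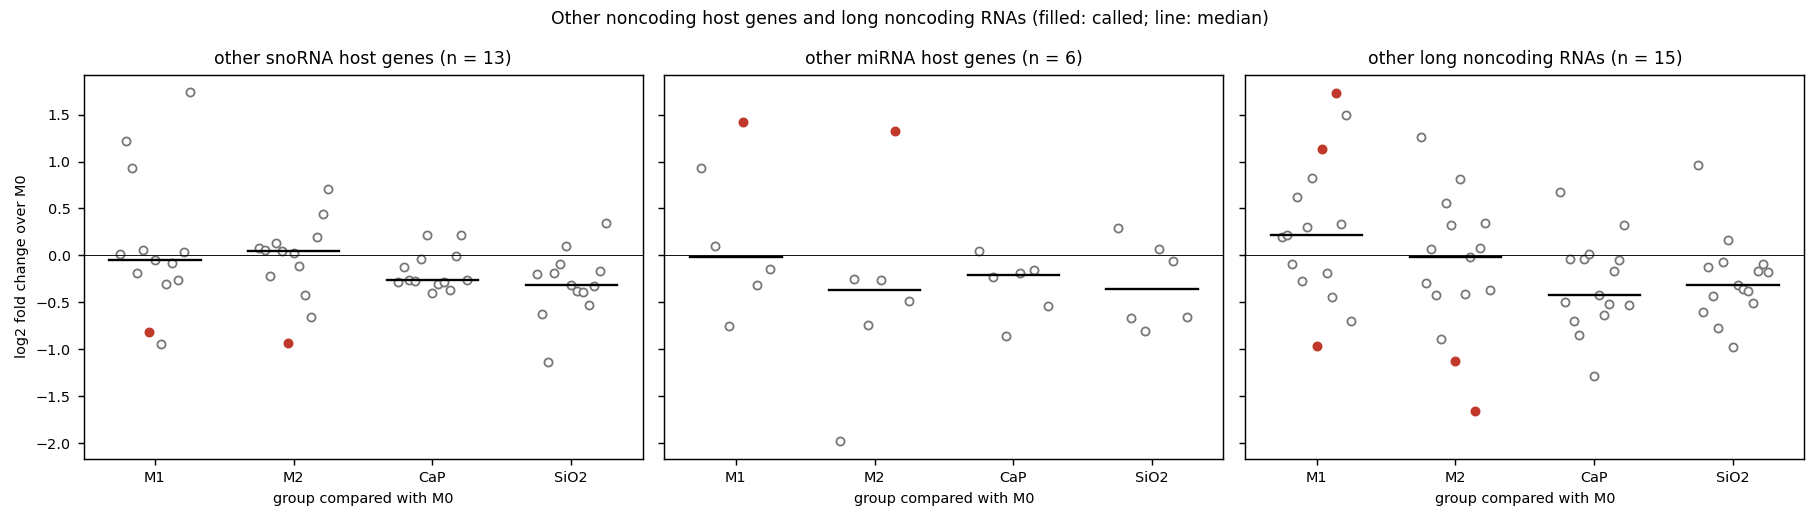
log2 fold change against M0 (y axis) of other snoRNA hosts (13 genes), other miRNA hosts (6) and other lncRNAs (15), each point a gene, by group (x axis), filled red where called by edgeR, with a line at the median. The called genes are all in M1 and M2, and the medians with microrods lie between -0.42 and -0.21.

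The proteins that act with the members were read next. Of 14 paraspeckle proteins, which bind Neat1, 1 fell in M1 (4.37% of all genes), Sfpq, an essential paraspeckle component, from 43.5 to 17.2 CPM (log2 fold change -1.34, SE 0.37, adjusted p = 0.0269 in edgeR, passing in 11 of 15 fits without 1 library). Nono, its partner protein, had 106 CPM in M1 and 121 in M0 (-0.18, adjusted p = 0.528). In M2 and with microrods 0 of 14 passed. Only CaP had any at an unadjusted p below 0.05, with 4, against 15.8% of all genes.

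Of 13 proteins of the box C/D snoRNP and its assembly, 1 rose and 2 fell in M1, where 14.1% of all genes were called: Nufip1, an assembly factor (0.68, adjusted p = 0.0292 in edgeR), Nop58, a core protein (-0.57, adjusted p = 0.0211), and Znhit6, an assembly factor (-0.51, adjusted p = 0.0213). Each passed in 11 of 15 fits without 1 library, and none of the 3 with no filter on low counts (adjusted p = 0.167, 0.153 and 0.361). Proteins of other snoRNP classes were not read, so this list need not apply to every snoRNA of the hosts. Of 15 nonsense-mediated decay factors, 2 were called in M1, a share near that of all genes, both lower: Upf2, which bridges the decay complex, from 19.8 to 9.08 CPM (-1.14, SE 0.20, adjusted p = 0.00197), and Magoh, of the exon junction complex, from 107 to 71.7 CPM (-0.58, SE 0.18, adjusted p = 0.0470). Upf2 passed in 15 of 15 fits without 1 library and Magoh in 5. In M2 and with microrods 0 members of either list passed.

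Of 13 genes of miRNA processing and silencing, 3 fell in M1 (4.37% of all genes fell) and 1 rose in M2 (4.13% were called). Tnrc6b, a scaffold of silencing, fell from 12.3 to 5.13 CPM (-1.26, SE 0.27, adjusted p = 0.00651 in edgeR), Ago2, the slicing Argonaute, from 44.0 to 23.6 CPM (-0.90, SE 0.17, adjusted p = 0.00328), and Prkra, a partner of Dicer, from 10.9 to 6.92 CPM (-0.65, SE 0.19, adjusted p = 0.0386, passing in 10 of 15 fits without 1 library). Tarbp2, another partner of Dicer, rose in M2 from 21.6 to 57.1 CPM (1.41, SE 0.25, adjusted p = 0.00454). That call was lost with only the 6 M2 and M0 libraries (adjusted p = 0.120). Drosha and Dicer1 themselves had log2 fold changes of 0.04 (adjusted p = 0.934) and -0.19 (adjusted p = 0.586) in M1.

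Transcripts known as targets of the hosted miRNAs were read last. Of 12 tested targets of miR-155, 2 rose and 1 fell in M1 (14.1% of all genes called), with a median log2 fold change of -0.16. Ikbke, a kinase of interferon signalling, rose from 14.2 to 42.0 CPM (1.57, SE 0.34, adjusted p = 0.00670 in edgeR), Socs1, an inhibitor of cytokine signalling, from 0.451 to 6.78 CPM (3.97, adjusted p = 0.0152, passing in 13 of 15 fits without 1 library), and Csf1r, the receptor of macrophage colony-stimulating factor, fell from 165 to 87.9 CPM (-0.90, SE 0.28, adjusted p = 0.0438). The call of Csf1r was lost without M0 replicate 2 (adjusted p = 0.132), M0 replicate 3 (0.0957), M1 replicate 1 (0.141), M1 replicate 2 (0.101) or any 1 of the SiO2 libraries (0.0514 to 0.0553). In M2, Socs1 stood higher still, at 75.5 CPM (7.47 against M0, adjusted p = 0.000404), the 1 target of miR-155 called there (4.13% of all genes). Mir155hg was near its floor in M2, in M0 and with both microrods. Socs1 had 0.451 CPM in M0, 0.659 with CaP and 0.467 with SiO2 microrods, and a relation between Socs1 and Mir155hg was not tested. Of 10 tested targets of miR-15 and miR-16, 1 fell in M1 (14.1% of all genes called), and 1 rose and 1 fell in M2 (4.13%). Ccnd2, a cyclin, fell in M1 from 74.8 to 28.3 CPM (-1.40, SE 0.15, adjusted p = 2.90e-05) and in M2 to 45.7 CPM (-0.71, adjusted p = 0.0154), the latter lost without M0 replicate 2 (adjusted p = 0.0547). Bcl2, which restrains apoptosis, rose in M2 from 5.31 to 12.0 CPM (1.15, SE 0.21, adjusted p = 0.00697). The call of Bcl2 was lost with only the 6 M2 and M0 libraries (adjusted p = 0.167). With CaP microrods 1 target of miR-155 passed, where 0.654% of all genes were called, and with SiO2 microrods 0 (0.264%). The 1 was Maf, at 0.207 against 1.07 CPM (-2.41, adjusted p = 0.0171 in edgeR). Its call was lost without M0 replicate 1, CaP replicate 2 or CaP replicate 3, and in other settings given below. Its mean with CaP was near the floor of 3 counts in CaP replicate 2, 0.197 CPM. Of the targets of miR-15 and miR-16, 0 passed with either microrod.

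Genes whose profile over the 15 libraries was most like that of each member were found by the root mean square (RMS) difference of centred log2 CPM. Nearest to Mir155hg were Gstt4 (0.48) and U90926 (0.52), beside 2.57 for Mir155hg against a flat profile. Nearest to Neat1 were Gm48293 (0.35), Nr4a2, a nuclear receptor induced early after stimulation (0.35), and Cd80, a costimulatory surface protein (0.37), beside 0.76 for a flat profile. Snhg1 had as neighbours AC121821.1 (0.16), the mitochondrial gene mt-Nd4 (0.17) and Tent4a (0.18), beside 0.30. For Dleu2 they were Prr14l (0.18), Herc1 (0.21) and BC005537 (0.22), beside 0.50. Snhg15 came closest to any gene, with Tmem208 at 0.07, Polr2i at 0.10 and Rpl7a at 0.10, beside 0.18 for a flat profile. The neighbours of Malat1 (Stab1, Gga3 and Dlx1as, 0.25 to 0.26), Snhg12 (Trim6, AC165962.1 and Gm20005, 0.22 to 0.25) and Gas5 (2610001J05Rik, Krtcap2 and Zfp672, 0.16) were beside flat profiles of 0.46, 0.51 and 0.26.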

How the data were processed

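Polyadenylated RNA of MH-S cells was made into Smart-seq2 libraries, without molecular identifiers, and sequenced as paired-end reads. The authors processed the reads with the nf-core/rnaseq pipeline (STAR and Salmon, Ensembl annotation, build GRCm39 per the labels) and deposited 1 table of counts per gene, as whole numbers, without normalization. Salmon estimates counts, so these may be rounded estimates, and intervals cover counting error only. All columns were mapped to samples by name, and 0 columns were left unused.

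Genes were named and given exon lengths and neighbours from a mouse annotation of build GRCm38, which matched 51487 of 78317 identifiers. Sequences and their coordinates are those of RefSeq on GRCm38.p6, since a GRCm39 genome was not used here, and no coordinate was converted.

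The statistics were computed with edgeR 4.0.16 under R 4.3.3: filterByExpr by group, TMM scaling, 1 model of all 15 libraries without a replicate term, the quasi-likelihood test and Benjamini-Hochberg adjustment over 16654 genes. Calls required an adjusted p under 0.05 together with a log2 fold change beyond 0.5 in either direction. Standard errors and 95% intervals come from that model, and levels are CPM with the SD over 3 libraries. With 3 libraries a group a single-value exact permutation test cannot fall below the usual threshold, so none was run. Depth ranged from 8459643 to 68750050 counts, and 3 counts were taken as the floor. Replicates differed beyond counting noise in every group, so none was merged.

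All 8 members are named in every comparison. Named further are tested neighbours (1 is not reported here), the 3 genes nearest in profile, and up to 4 called genes per list whose mean reached 5 CPM in 1 group. Zfas1, Maf, Nono, Drosha and Dicer1 fall outside this rule, as do repeats of a named gene in another comparison. The members and the lists were chosen with earlier results of these data known. The test was tried on simulated counts. Alternatives were DESeq2 1.42.0, its size factors, no filter, a filter of 10 counts per library, thinning to the smallest library, only the libraries compared, a replicate block, no fold threshold, leaving out each library, and, added after seeing the data, edgeR's legacy quasi-likelihood.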

Additional observations from a re-analysis of the deposited data

Results flagged for a closer look

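The effects of the M1 and M2 stimuli, each against M0, differed for 3 members by the direct edgeR test of M1 against M2. The M0 mean cancels in this test, but the M0 libraries still entered the filter, the scaling and the estimate of spread. With only the 6 libraries compared, Neat1 kept its call, and Malat1 (adjusted p = 0.123) and Snhg12 (adjusted p = 0.133) lost theirs. On the log2 scale the effect in M1 exceeded that in M2 by 1.99 for Neat1 (SE 0.37, adjusted p = 0.00192), by 1.15 for Malat1 (SE 0.29, adjusted p = 0.0141) and by 0.84 for Snhg12 (SE 0.27, adjusted p = 0.0448). All 3 M1 libraries were above all 3 M2 libraries for each of them. Groups of 3 libraries were too small for a formal check of outlying samples. In the 15 fits without 1 library, the call was kept in 15 for Neat1, 13 for Malat1 and 4 for Snhg12.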

How the results depend on the processing

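Counting Mir155hg, the number of members called in M1 against M0 (2) became 1 with no filter, under the filter of 10 counts per library, which removes Mir155hg, and with thinned counts, and lay between 1 and 3 without 1 library. In M2 against M0 it rose from 0 to 2 with DESeq2 and with no filter, and lay between 0 and 2 without 1 library. In M1 against M2 it fell from 4 to 2 under the filter of 10 counts per library and with only the 6 libraries compared, and lay between 2 and 4 without 1 library. With CaP against M0 it rose from 0 to 1 with DESeq2 and with no filter. With CaP against M0, SiO2 against M0 and CaP against SiO2 it was 0 without any 1 library. Where not due to fewer genes or libraries, the cause was not tested.

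Snhg1 lost its call in M1 with no filter (adjusted p = 0.135) and with thinned counts (0.0589). Snhg12 lost its call against M2 with DESeq2 size factors (0.0639), no filter (0.0933), at least 10 counts (0.0569), the replicate block (0.0765), the 6 libraries (0.133) and the legacy test (0.0540). Malat1 lost it with the 6 libraries (0.123). Among neighbours in M1 against M2, Trim13 lost its call with no filter (0.105), thinned counts (0.0996) and the 6 libraries (0.203). Gm27010 lost its call with DESeq2 (0.0579), thinned counts (0.0842), the 6 libraries (0.139) and the legacy test (0.0887). Slc3a2 lost its call there with no filter (0.114) and the 6 libraries (0.112). Maf lost its call in CaP against M0 with thinned counts (0.267), the 6 libraries (0.232), the 9 M0 and microrod libraries (0.0670) and the legacy test (0.0513). With the 6 libraries, Tarbp2 (0.120), Kcnq1ot1 (0.120), Ptgs2os2 (0.137) and Bcl2 (0.167) lost their calls in M2 against M0. Mir99ahg (0.190), Snhg18 (0.251) and Ccnd2 (0.270) lost theirs in the same fit. In M1 against M0 the 6 libraries lost the calls of Kcnq1ot1 (0.110), Prkra (0.0755), Nufip1 (0.0732), Znhit6 (0.0575), Snhg18 (0.0548) and Csf1r (0.0547).

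The sign turned only for values that were not called. CaP against SiO2 was 0.00227 (no filter) and 0.24 (thinned) for Snhg12 and -0.011 (thinned) for Mir155hg. Without 1 library, CaP against SiO2 ranged from -1.0 to 1.15 for Mir155hg, -0.35 to 0.16 for Snhg12, -0.019 to 0.36 for Gas5, -0.042 to 0.23 for Snhg1, -0.076 to 0.16 for Snhg15, -0.49 to 0.093 for Dleu2 and -0.19 to 0.30 for Neat1. Likewise M1 against M0 ranged from -0.042 to 0.33 for Gas5 and -0.027 to 0.65 for Malat1, M2 against M0 from -0.24 to 0.14 for Gas5, -0.21 to 0.11 for Snhg12 and -0.29 to 0.017 for Snhg15, CaP against M0 from -0.33 to 0.15 for Gas5 and -1.86 to 0.29 for Mir155hg, and M1 against M2 from -0.18 to 0.027 for Snhg15. Neat1 per Malat1 in M2 moved from 4.31 to 4.88 with thinning.

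With the replicate block 2 members were called in M1 against M0, 3 in M1 against M2 and 0 in the other 4 comparisons. The first 2 counts include Mir155hg, which passed the filter only through M1 and is given as a description. No member's call changed except that of Snhg12. Other calls lost under the block were those of Slc3a2 in M1 against M2 (adjusted p = 0.0502), in M1 Nufip1 (0.0520), Snhg18 (0.0600), Prkra (0.0619) and Magoh (0.0631), and in M2 Kcnq1ot1 (0.0624) and Snhg18 (0.0705). Same-numbered libraries did not deviate together (correlations of -0.70 to 0.60, median -0.01), and 4 of 15 libraries matched their own number best, so the numbers were not read as pairing.

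Over all genes, CaP against M0 had 109 calls, 468 with DESeq2, 968 with no filter, 59 with the block or the legacy test, 48 thinned, 68 with the 9 M0 and microrod libraries and 7 with the 6 compared. SiO2 against M0 had 44, and 132, 205, 19 (block), 34 (legacy), 24, 10 and 1. M2 against M0 had 687, 995 with DESeq2, 1141 (764 higher) with no filter, 456 thinned and 98 with 6 libraries. M1 against M2 had 2679, 4407 (2099 higher) with no filter and 1377 with 6. CaP against SiO2 had 3, 16 with DESeq2 and 104 with no filter.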
